A study of Homo sapiens with 16 samples.

Results

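Collagens, laminins and integrins are the chains from which cells build their surrounding matrix and the receptors that hold on to it. Collagen chains wind into triple helices that form fibrils, beaded filaments or the mesh of basement membranes, laminin chains join as α, β and γ trimers in basement membranes, and integrin α and β subunits pair into transmembrane receptors that bind both and link them to the actin cytoskeleton. The members described here were the protein-coding genes of GENCODE whose symbols name a collagen chain (COL, a number, A, a number), a laminin chain (LAMA, LAMB or LAMC with 1 digit) or an integrin subunit (ITGA with a number or V, or ITGB with a digit). The rule found 77 genes, 44 for collagens, 12 for laminins and 21 for integrins, among the 60107 genes listed in each library, and it used no measured value. Bone-forming cells are known for type I collagen, the main protein of bone matrix, and the fibronectin, collagen and laminin receptors of the integrin family anchor such cells to their substrate.

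The cells were U2OS-TR, a human osteosarcoma line carrying the tetracycline repressor, and all 16 libraries came from their cytoplasmic RNA. Control (n = 5) and Induced (n = 5) were the U2OS-TR/ΔN-RNMT line, in which a repressor-controlled CMV promoter drives ΔN-RNMT, an inactive and cytoplasm-restricted form of the cap methyltransferase RNMT. No Dox (n = 3) and With Dox (n = 3) were parental U2OS-TR cells without the transgene, which show what doxycycline does by itself. Cells grew for 48 h, doxycycline at 1 μg/ml was added to the Induced and With Dox dishes, and all dishes were harvested 24 h later. The protocol text attached to each library lists the drug for all 16, so the study's design text was followed for who received it. The transgene line is 1 drug-selected clone, so its levels are those of a clone and not of the parental population.

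RNMT itself was read first as the check of the labels. It stood at 66.2, 55.6, 62.7, 74.6 and 112 CPM (counts per 1000000 gene counts, scaled with edgeR's TMM factors) in Control 1 to 5 and at 278, 360.4, 266, 458 and 368 CPM in Induced 1 to 5, with no overlap between the groups. The log2 fold change was 2.22 ± 0.23 (SE, edgeR with Benjamini-Hochberg adjustment, adjusted p = 0.00805).

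Tags are read next to the poly(A) tail, so CPM was compared between genes without a correction for length. Tags aligned to no feature or to several places were left out, so a tag count is not an exact transcript number. Control libraries held 18991617 to 23251834 gene counts, Induced libraries 12527183 to 20781875, No Dox libraries 1578749 to 3214808 and With Dox libraries 1473286 to 2979789. The parental libraries were read at 150 nt on another instrument and the transgene libraries at 75 nt, so differences between the lines cannot be told apart from differences in sequencing. Control 5 and Induced 2 stood apart: for 14 and 12 of the 19 members called below, they lay beyond the midpoint between the group means, whereas the other 8 transgene libraries did so for 0. Results are therefore also given without both libraries. In the parental line, No Dox 2 and With Dox 3 had collagen tags at 0.0326% and 0.0280% of their gene counts against 0.0861% to 0.0950% in the other 4 libraries.

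The osteosarcoma label was set against marker genes. Of 13 osteoblast-lineage markers, 4 averaged at least 1 CPM in Control, among them SPARC, COL1A1 and RUNX2, while SP7, BGLAP and DMP1 had no count in any library and COL1A2 had 2. Among 11 epithelial markers, KRT8, KRT18, EPCAM and CLDN4 reached 1 CPM, and their summed list lay between 404 and 620.3 CPM in Control and between 282 and 394 CPM in Induced. KRT18 and KRT8 held most of that sum, with medians of 397 and 96.3 CPM in Control and 220 and 75.1 CPM in Induced. EPCAM went the other way, from a median of 7.72 CPM in Control to 13.9 CPM in Induced. Of the 4 epithelial markers tested, 0 were higher and 2 lower. The part of this list in the integrin and laminin results below was not tested. Of the 4 tested osteoblast-lineage markers, 2 were higher in Induced. The 11 mesenchymal or fibroblast markers summed to between 309.7 and 529 CPM in Control and between 393 and 785 CPM in Induced, where 2 of 7 tested were higher. The 6 chondrocyte markers, of which COMP had no count in any library, summed to between 28.9 and 55.6 CPM in Control and between 53.2 and 161 CPM in Induced, where 2 of 3 tested were higher. Most of the chondrocyte sum came from 1 gene and most of the mesenchymal sum from 2 genes. The part of these lists in the collagen results below was not tested. Leukocyte, endothelial and muscle lists summed to at most 1.56 CPM in every Control library. In bulk RNA, fewer cells expressing a gene and less RNA per cell cannot be told apart.

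Integrins made up most of the member tags in the transgene line and collagens a larger part in the parental line. Integrin subunits took 72.8% ± 1.59 (SD, n = 5) of all member counts in Control, collagens 18.03% ± 0.869 and laminins 9.16% ± 0.930. In No Dox the shares were 43.8% ± 9.50 (SD, n = 3), 45.7% ± 9.67 and 10.4% ± 0.178. All 77 genes together received between 0.122% and 0.170% of the gene counts of a Control library. A mean of at least 1 CPM in Control was reached by 40 members and of at least 10 CPM by 18.

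ITGB5, the β subunit that pairs with ITGAV into a vitronectin receptor, was the most abundant member in Control, with 1002, 905, 668, 1024 and 848 CPM in Control 1 to 5. It alone held 52.7% ± 4.08 (SD, n = 5) of the member counts there and 12.4% ± 6.43 (SD, n = 3) in No Dox. ITGA3, a laminin-binding α subunit (111 ± 29.0 CPM, SD, n = 5), and ITGB1, the common β subunit of collagen, laminin and fibronectin receptors (99.7 ± 21.1 CPM), came next and overlapped. ITGB4, the β subunit of the hemidesmosome receptor, followed at 60.9 ± 15.0 CPM, then ITGAV, the α partner of ITGB5, at 22.3 ± 4.16 CPM and ITGA6, the α partner of ITGB4, at 13.3 ± 8.32 CPM. ITGAV had few tags beside its partner ITGB5 in Control, with ratios of ITGAV to ITGB5 counts of 0.0238, 0.0203, 0.0376, 0.0170 and 0.0315 in the 5 libraries, and a larger share in No Dox, with 0.515, 0.249 and 0.422.

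Among collagens the basement membrane chain COL4A2 (83.8 ± 19.1 CPM, SD, n = 5) and the bone collagen COL1A1 (72.6 ± 11.2 CPM) led in Control and overlapped. COL5A1, a minor fibril chain (25.3 ± 4.09 CPM), COL6A3, a beaded-filament chain (21.8 ± 22.6 CPM), COL27A1, a fibrillar chain of cartilage (20.1 ± 3.13 CPM), and COL6A1 (14.4 ± 2.30 CPM) followed, their ranges meeting or close. COL1A1, whose chain normally winds with that of COL1A2, was thus measured while COL1A2 had 2 tags over all 16 libraries. COL3A1, the fibrillar collagen of soft tissue, was at 0, 0, 0, 0.0484 and 0 CPM in Control 1 to 5, against 23.4, 7.93 and 27.8 CPM in No Dox 1 to 3. COL1A1 was also higher in the parental libraries, at 309.9, 117 and 401 CPM in No Dox.

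Among laminin chains, the γ chain LAMC1 stood at 31.1 ± 3.41 CPM (SD, n = 5) in Control. Below it came the β chains LAMB3 (24.0 ± 10.4 CPM) and LAMB1 (20.4 ± 8.34 CPM), which overlapped, and the α chains LAMA1 (14.4 ± 4.70 CPM) and LAMA5 (8.69 ± 2.51 CPM). LAMA3, the α chain known to trimerize with LAMB3 in epithelial basement membranes, was at 0 in 4 of 5 Control libraries. In No Dox, LAMA5 stood at 57.4 ± 20.0 CPM (SD, n = 3), above LAMB3 at 12.3 ± 3.96 CPM and LAMB1 at 9.64 ± 5.86 CPM. COL6A5 had no count in any library, and 16 further members had between 1 and 9 counts in all libraries together.

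**Figure D1:**
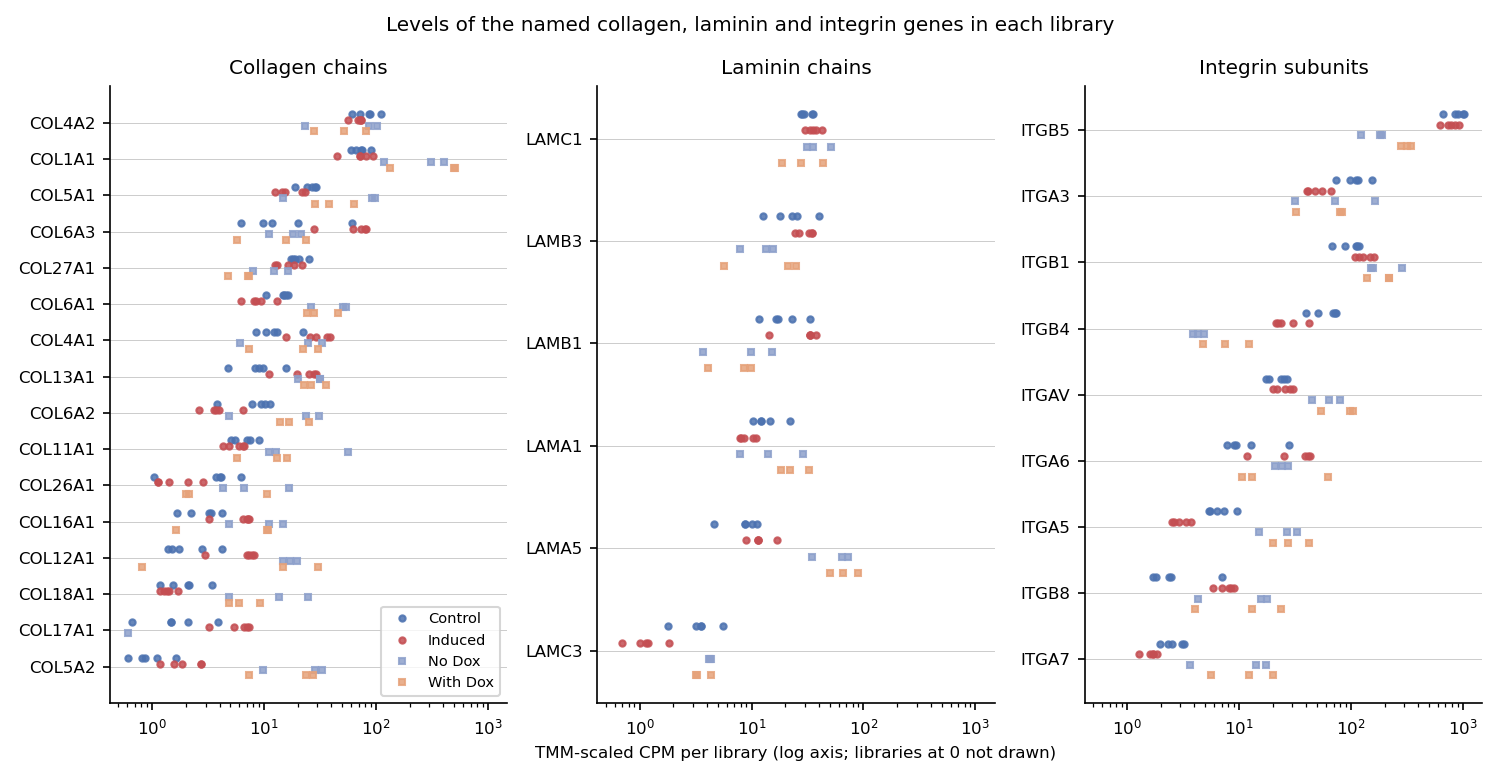
TMM-scaled CPM of named members in each library, on a log axis, with 1 row per gene and 1 point per library; libraries at 0 are not drawn. ITGB5 lies between 668 and 1024 CPM in Control and between 123 and 188 CPM in No Dox, while COL5A2 and COL1A1 lie higher in the parental libraries.

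The comparison of Induced with Control asked which of these genes change when cytoplasmic cap methylation is blocked by ΔN-RNMT. Of the 77 members, 40 had a base mean (average scaled count) above 20 and were tested with edgeR's quasi-likelihood test, and 19 passed at an adjusted p below 0.05 (Benjamini-Hochberg). In Induced, 9 were higher, which is 22.5% of the 40, against 20.0% of all 13038 genes tested, and 10 were lower, which is 25% against 19.8%. These shares are near the background. By family, 7 of 21 tested collagens were higher and 3 lower, 0 of 7 laminins were higher and 3 lower, and 2 of 12 integrins were higher and 4 lower. With library totals alone in place of TMM factors, which moves the median of all genes to 0.28, 12 members were higher and 5 lower: 8 and 1 collagens, 1 and 1 laminins, and 3 and 3 integrins. Those members were 30% and 12.5% of the 40, against 30.8% and 10.7% of all genes tested. The median log2 fold change was −0.27 for collagens, 0.21 for laminins, −0.07 for integrins and 0.04 for all genes. With offsets for GC content, described below, these medians were 0.12, 0.15, −0.29 and −0.03. They were −0.02, 0.45, 0.16 and 0.28 with library totals. The sign of the collagen and integrin medians thus depended on the setting. Among the 40 tested members, groups without any overlap between libraries were found for 3, ITGA3, ITGA5 and ITGA7, all lower, against 7.30% of all genes tested in either direction.

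Calls depended on single libraries, among all genes as among the members. With each library left out in turn, between 7 and 27 members were called: 9, 8, 14, 13 and 27 without Control 1 to 5, and 7, 20, 9, 8 and 13 without Induced 1 to 5. Over all genes, calls ranged from 1869 without Induced 1 to 7604 without Control 5, the fits with the fewest and most called members. The calls of COL12A1, COL13A1, COL17A1, ITGA3, ITGA5, ITGB4 and LAMC3 were kept in every one of these 10 fits. They were kept narrowly, since the highest adjusted p of each gene was 0.0495 (edgeR, Benjamini-Hochberg). Without Control 5 and Induced 2 together, 27 members were called, which included the 19, and the added ones were COL18A1, COL22A1, COL5A1, COL9A2, ITGB2, LAMA5, LAMB1 and LAMB3. These libraries were picked because they ran against the called members, and the calls grew among all genes too. There, 13 members were higher and 14 lower, which is 32.5% and 35% of the 40, against 33.8% and 30.5% of the 12956 genes tested in that fit. When 1 surrogate variable for hidden variation was added to the fit, 0 members and 1 gene in all were called.

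**Figure D2:**
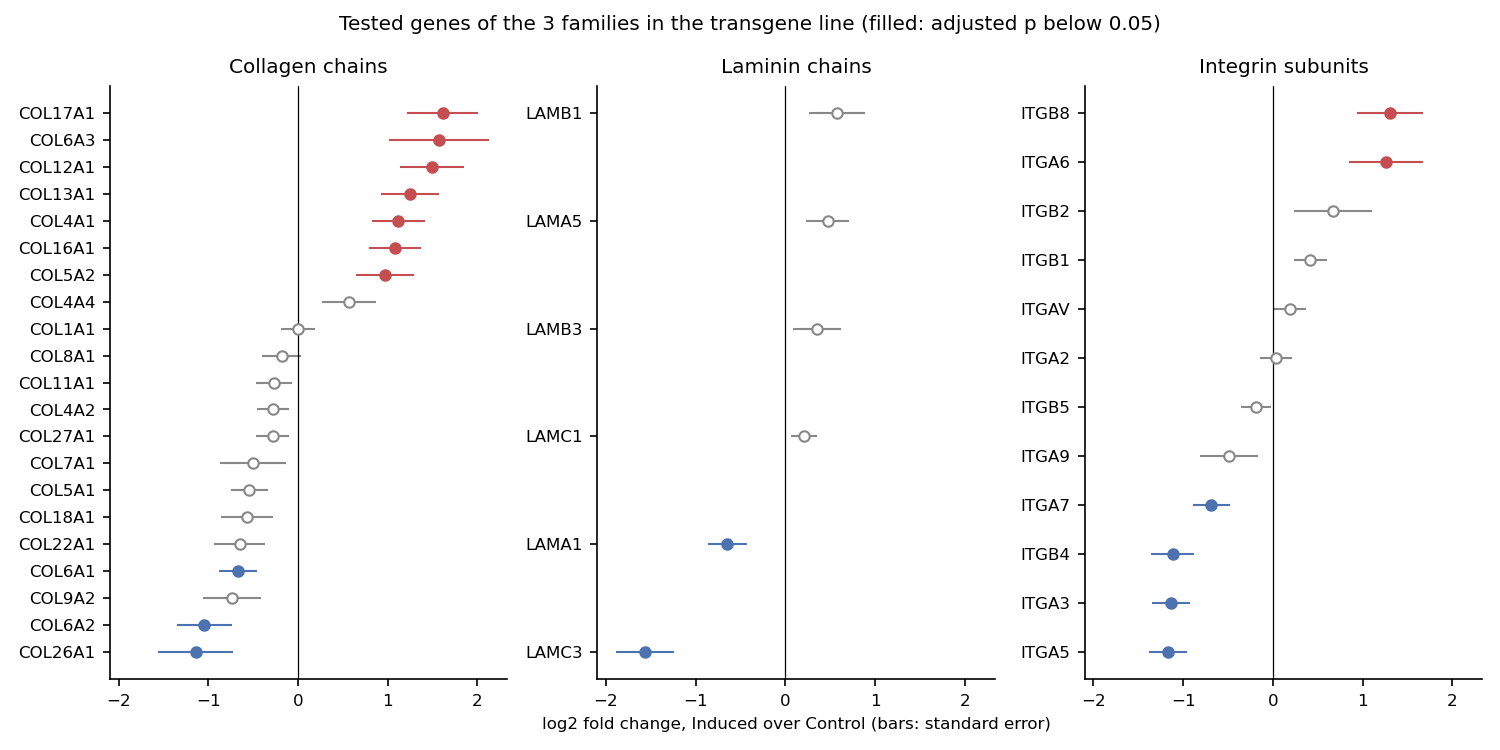
log2 fold change of Induced over Control with its standard error for tested members, by family; filled points are called at an adjusted p below 0.05. Called rises run from 0.97 (COL5A2) to 1.61 (COL17A1) and called falls from −0.65 (LAMA1) to −1.57 (LAMC3).

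Type IV collagen is the network collagen of basement membranes. COL4A1 and COL4A2 encode chains that wind together in a trimer of 2 α1 and 1 α2 chains, and they lie head to head on chromosome 13 (GRCh38), COL4A1 at 110148963 to 110307157 on the reverse strand and COL4A2 at 110305812 to 110513209 on the forward strand. The RefSeq promoter windows of both (GRCh38.p14, 250 bases before to 50 after the start) share 226 bases and are shown because these genes start from 1 shared region and differed in their readout. The COL4A1 window is chr13:110307108-110307407 on the reverse strand, and the COL4A2 window is chr13:110307034-110307333 on the forward strand. Capitals mark CCAAT and GGGCGG, which were searched on both strands together with TATAAA and TGANTCA.
COL4A1: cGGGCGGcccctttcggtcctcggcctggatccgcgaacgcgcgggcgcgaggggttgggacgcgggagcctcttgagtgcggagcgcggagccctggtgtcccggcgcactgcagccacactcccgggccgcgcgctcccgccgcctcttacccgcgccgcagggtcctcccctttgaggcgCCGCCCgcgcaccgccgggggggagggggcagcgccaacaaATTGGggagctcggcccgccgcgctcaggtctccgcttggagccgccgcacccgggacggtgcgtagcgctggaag
COL4A2: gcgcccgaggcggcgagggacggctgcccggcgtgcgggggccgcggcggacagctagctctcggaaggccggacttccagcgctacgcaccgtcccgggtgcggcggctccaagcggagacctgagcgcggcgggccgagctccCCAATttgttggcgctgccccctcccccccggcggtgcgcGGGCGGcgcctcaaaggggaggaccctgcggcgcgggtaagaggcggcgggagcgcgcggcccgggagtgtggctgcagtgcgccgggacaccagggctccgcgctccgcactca
CCAAT occurs in 34.6%, GGGCGG in 45.0%, TATAAA in 11.5% and TGANTCA in 7.71% of all 35116 windows of the RefSeq table, which holds windows for 56 of the 77 members. The COL4A1 window holds 1 CCAAT and 2 GGGCGG matches and the COL4A2 window 1 of each, and neither holds TATAAA or TGANTCA.

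COL4A1 rose while COL4A2 did not pass the test. COL4A1 was at 10.4, 12.3, 8.56, 13.2 and 22.5 CPM in Control 1 to 5 and at 36.2, 15.7, 38.8, 29.1 and 25.7 CPM in Induced 1 to 5. All Control libraries but 5 lay below all Induced libraries, and Induced 2 was the lowest of its group. The log2 fold change was 1.12 ± 0.30 (SE, edgeR with Benjamini-Hochberg adjustment, adjusted p = 0.0187), a 2.17-fold rise. On the log2 scale it was 1.54 without Control 5 and Induced 2, and the call was lost in 1 of the 10 leave-one-out fits. That loss was narrow, at an adjusted p of 0.0507 by the same test. COL4A2, in turn, was at 112, 86.2, 72.5, 88.1 and 60.4 CPM in Control and at 73.5, 72.2, 74.0, 69.3 and 56.4 CPM in Induced, where the groups overlapped. Its log2 fold change was −0.28 ± 0.17 (SE, edgeR with Benjamini-Hochberg adjustment, adjusted p = 0.204). The fold change of COL4A2 turned to 0.16 with GC offsets. Antisense genes COL4A2-AS1 and COL4A2-AS2 overlap COL4A2 exons, and whether the counting used strand is not given in the sources used here.

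Type VI collagen, which forms beaded filaments close to the cell surface, also split between its chains. COL6A1 and COL6A2 lie on chromosome 21 on the same strand, 93062 bases apart, and COL6A3, the largest chain of the trimer, lies on chromosome 2. COL6A3 was at 11.9, 6.26, 9.84, 20.0 and 61.2 CPM in Control 1 to 5 and at 79.6, 28.0, 82.0, 73.5 and 62.3 CPM in Induced 1 to 5. Control 5 was at the level of Induced 5, Induced 2 fell to the level nearest Control 4, and the other 8 libraries separated. The log2 fold change was 1.57 ± 0.56 (SE, edgeR with Benjamini-Hochberg adjustment, adjusted p = 0.0431), but 2.62 without Control 5 and Induced 2, and the call was lost in 8 of the 10 leave-one-out fits. Without Control 5 alone it was 2.42. COL6A1 fell from 16.3, 15.7, 14.8, 15.0 and 10.5 CPM in Control to 8.43, 13.1, 8.18, 6.22 and 9.44 CPM in Induced, a log2 fold change of −0.67 ± 0.21 (SE, adjusted p = 0.0282) by edgeR with Benjamini-Hochberg adjustment. COL6A2 went the same way, from 10.1, 9.36, 11.2, 7.74 and 3.82 CPM to 2.61, 6.49, 3.55, 3.73 and 3.92 CPM, a log2 fold change of −1.05 ± 0.31 (SE, adjusted p = 0.0241) by the same test. Control 5 was the lowest Control library for both chains and Induced 2 the highest Induced library. Both calls were lost with GC offsets, at −0.22 (adjusted p = 0.272) for COL6A1 and −0.50 (adjusted p = 0.0863) for COL6A2 (edgeR, Benjamini-Hochberg). Leaving out Control 1, 2 or 4, or Induced 1, 3 or 4, alone lost the call of COL6A1. Leaving out Control 1 or 2, or Induced 1, 3 or 4, alone lost that of COL6A2.

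Among the fibril-forming collagens, COL1A1 did not pass the test, with 81.4, 72.1, 93.1, 71.5 and 45.2 CPM in Induced 1 to 5 against 89.5, 73.3, 66.6, 74.5 and 59.3 CPM in Control, and a log2 fold change of 0.00 ± 0.19 (SE, adjusted p = 0.999) by edgeR with Benjamini-Hochberg adjustment. COL5A2, a chain of the type V trimer that sits inside type I fibrils, was called higher at low counts. It went from 0.863, 0.819, 0.611, 1.11 and 1.65 CPM to 1.57, 1.18, 2.73, 1.84 and 2.73 CPM, a log2 fold change of 0.97 ± 0.33 (SE, adjusted p = 0.0359) by edgeR with Benjamini-Hochberg adjustment, and the call was lost in 8 of the 10 leave-one-out fits. COL5A1, the more abundant chain of the same trimer, moved the other way from 25.3 ± 4.09 to 17.4 ± 4.71 CPM (SD, n = 5 each) and just missed the threshold, at −0.54 ± 0.20 (SE, adjusted p = 0.0518), which became −0.76 and a call without Control 5 and Induced 2. COL11A1, which joins type II and type V fibrils, had a log2 fold change of −0.27 ± 0.20 (SE, adjusted p = 0.296) and COL27A1 one of −0.28 ± 0.19 (SE, adjusted p = 0.227), both from edgeR with Benjamini-Hochberg adjustment.

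The remaining called collagens were of the fibril-associated and transmembrane kinds, apart from COL26A1. COL12A1, a fibril-associated chain, was at 1.73, 1.52, 1.39, 2.81 and 4.25 CPM in Control 1 to 5 and at 8.13, 2.96, 7.80, 7.37 and 7.07 CPM in Induced, with Control 5 above Induced 2. Its log2 fold change was 1.49 ± 0.36 (SE, edgeR with Benjamini-Hochberg adjustment, adjusted p = 0.0175). COL16A1, also fibril-associated, went from 2.95 ± 1.01 to 6.27 ± 1.74 CPM (SD, n = 5 each), a log2 fold change of 1.08 ± 0.29 (SE, adjusted p = 0.0199) by edgeR with Benjamini-Hochberg adjustment, with a call lost in 3 of the 10 leave-one-out fits. Both transmembrane collagens of this group rose. COL13A1, found at cell adhesions and neuromuscular junctions, was at 8.99, 8.24, 4.78, 9.73 and 15.8 CPM in Control and 19.7, 11.1, 29.0, 25.4 and 27.7 CPM in Induced, a log2 fold change of 1.25 ± 0.32 (SE, adjusted p = 0.0184). COL17A1, the collagen of hemidesmosomes that binds ITGB4, was at 1.47, 1.46, 0.667, 2.08 and 3.86 CPM in Control and 6.56, 3.25, 7.36, 7.10 and 5.34 CPM in Induced, a log2 fold change of 1.61 ± 0.39 (SE, adjusted p = 0.0177) by edgeR with Benjamini-Hochberg adjustment. In both genes Control 5 was the highest Control library, above Induced 2. COL26A1 fell from 3.84 ± 1.83 to 1.72 ± 0.733 CPM, at −1.14 ± 0.42 (SE, adjusted p = 0.0475), and this call was lost in 8 of the 10 leave-one-out fits. COL18A1, a basement membrane collagen and the source of endostatin, gave −0.57 ± 0.29 (SE, adjusted p = 0.121) and was not called.

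Laminin calls were all falls and involved chains of different trimers. LAMC3, a γ chain of non-epithelial basement membranes, was at 3.20, 3.57, 5.61, 3.53 and 1.78 CPM in Control 1 to 5 and 1.19, 1.83, 0.698, 1.15 and 1.01 CPM in Induced 1 to 5. Control 5 lay just below Induced 2, and the other libraries were apart. The log2 fold change was −1.57 ± 0.33 (SE, edgeR with Benjamini-Hochberg adjustment, adjusted p = 0.0175), the steepest called fall among the 40 tested members, and it lay between −1.79 and −1.36 with each library left out. LAMA1, the α chain of early embryonic basement membrane, went from 14.7, 12.3, 22.3, 12.2 and 10.3 CPM to 10.3, 11.0, 7.99, 7.97 and 8.55 CPM, a log2 fold change of −0.65 ± 0.22 (SE, adjusted p = 0.0356) by edgeR with Benjamini-Hochberg adjustment. This call was lost in 7 of the 10 leave-one-out fits.

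The other 4 tested laminin chains had positive fold changes that did not pass the test. LAMB1 gave 0.57 ± 0.31 (SE, adjusted p = 0.143), LAMA5 0.47 ± 0.24 (SE, adjusted p = 0.130), LAMB3 0.36 ± 0.27 (SE, adjusted p = 0.289) and LAMC1 0.21 ± 0.14 (SE, adjusted p = 0.244), all as log2 fold changes by edgeR with Benjamini-Hochberg adjustment. LAMB1, the β chain of most laminins, stood at 37.7, 33.4, 33.5, 33.6 and 14.2 CPM in Induced 1 to 5, so Induced 5 lay below 4 of the 5 Control libraries (17.3, 16.7, 11.7, 23.1 and 33.5 CPM). LAMB1 shares exonic sequence on the opposite strand with DLD and LAMA5 with ADRM1, whose tags could reach them if strand was ignored.

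The integrin α subunits ITGA3, ITGA5 and ITGA7 were lower in Induced without overlap between the groups. ITGA3 was at 116, 111, 154, 99.1 and 74.2 CPM in Control 1 to 5 and at 40.3, 66.7, 41.4, 47.9 and 55.6 CPM in Induced 1 to 5. Every Induced library lay below every Control library, although Control 5 and Induced 2 were the closest pair. The log2 fold change was −1.14 ± 0.21 (SE, edgeR with Benjamini-Hochberg adjustment, adjusted p = 0.0175) and ranged between −1.26 and −1.01 with each library left out. ITGA5, the fibronectin receptor subunit, had fewer tags, at 7.31, 5.44, 9.56, 6.39 and 5.51 CPM in Control and 2.91, 3.76, 3.36, 2.53 and 2.61 CPM in Induced, again with no overlap. Its log2 fold change was −1.17 ± 0.21 (SE, edgeR with Benjamini-Hochberg adjustment, adjusted p = 0.0175). ITGA7, a laminin-binding subunit of muscle, went from 3.20, 2.34, 3.11, 2.52 and 1.95 CPM to 1.72, 1.83, 1.27, 1.71 and 1.60 CPM, a log2 fold change of −0.68 ± 0.21 (SE, adjusted p = 0.0262) by edgeR with Benjamini-Hochberg adjustment. Its call was lost in 5 of the 10 leave-one-out fits, and its exons overlap those of BLOC1S1 and METTL7B on the opposite strand.

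Both subunits of the hemidesmosome receptor were called, in opposite directions. ITGB4 was at 72.3, 68.6, 73.4, 50.6 and 39.7 CPM in Control 1 to 5 and 23.7, 42.4, 30.5, 22.4 and 21.5 CPM in Induced 1 to 5, so Induced 2 alone reached into the Control range. The log2 fold change was −1.12 ± 0.24 (SE, edgeR with Benjamini-Hochberg adjustment, adjusted p = 0.0175). ITGA6, by contrast, rose from 9.40, 8.95, 12.8, 7.74 and 27.9 CPM to 41.5, 11.8, 42.8, 38.9 and 25.2 CPM, where Control 5 lay above Induced 2 and Induced 5. Its log2 fold change was 1.26 ± 0.42 (SE, edgeR with Benjamini-Hochberg adjustment, adjusted p = 0.0338), and 1.93 without Control 5 and Induced 2. This call was lost in 8 of the 10 leave-one-out fits and with GC offsets, at 0.96 (adjusted p = 0.0655). ITGB8, a β subunit that pairs with ITGAV and binds latent TGF-β, was the other riser, from 2.49, 1.81, 1.72, 2.37 and 7.07 CPM to 8.58, 5.88, 9.07, 8.16 and 7.07 CPM, a log2 fold change of 1.31 ± 0.37 (SE, edgeR with Benjamini-Hochberg adjustment, adjusted p = 0.0213). Only Control 5 overlapped the Induced range, and the call was lost in 5 of the 10 leave-one-out fits.

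Among the abundant integrins, ITGB1, ITGAV and ITGB5 did not pass the test, whereas ITGA3 and ITGB4, also abundant, were called lower as described above. ITGB1 gave a log2 fold change of 0.42 ± 0.18 (SE, adjusted p = 0.0837), ITGAV of 0.19 ± 0.18 (SE, adjusted p = 0.398) and ITGB5 of −0.18 ± 0.17 (SE, adjusted p = 0.378) by edgeR with Benjamini-Hochberg adjustment. With library totals ITGB1 was called higher. It was also called, narrowly, without Control 5 alone, at an adjusted p of 0.0491 by the same test. Induced libraries held 781, 929, 849, 730.4 and 623 CPM of ITGB5 and 109, 149, 129, 161 and 118 CPM of ITGB1. ITGB1 has the annotated pseudogene ITGB1P1, and the deposited tables list tags aligned to more than 1 place apart from the gene counts.

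**Figure D3:**
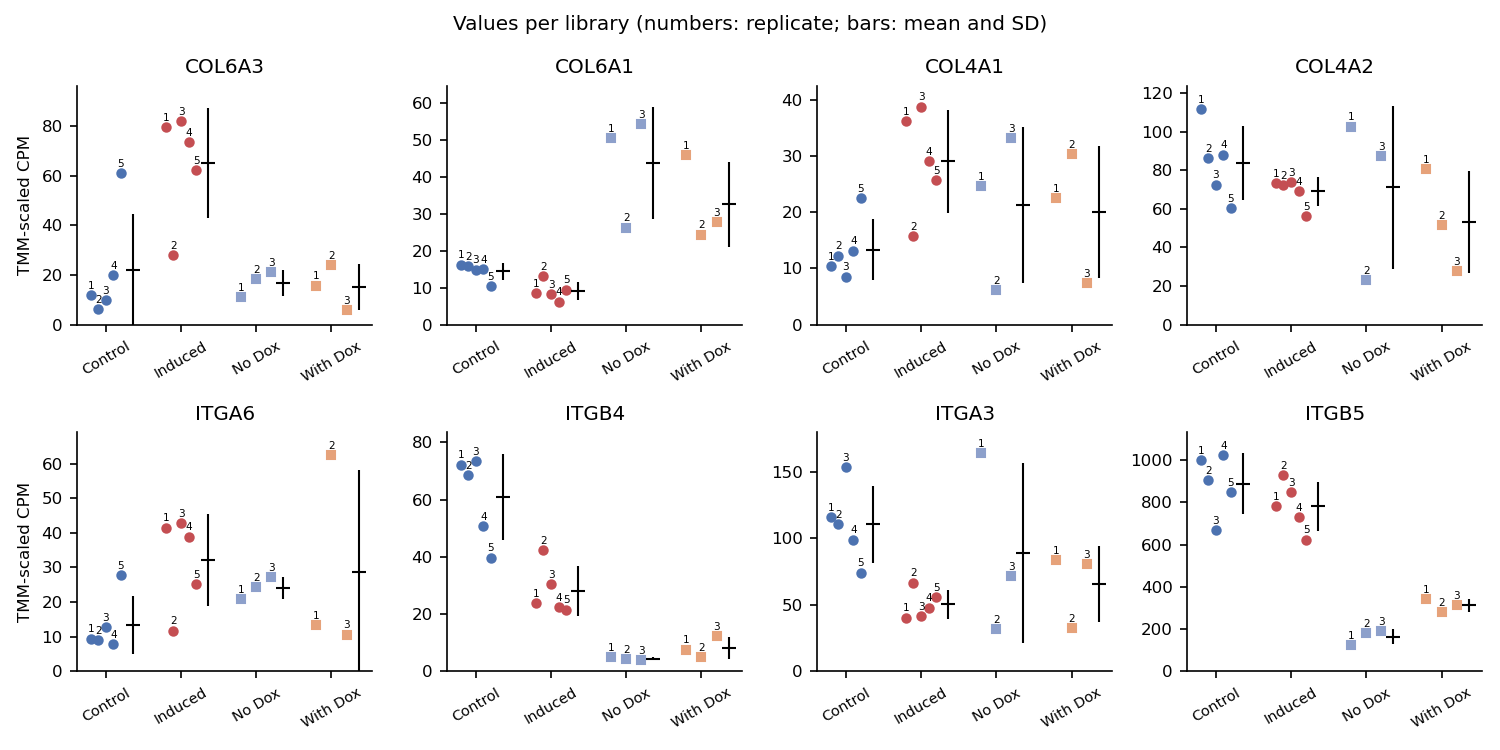
TMM-scaled CPM of 8 members in every library (points, numbered by replicate) with the mean and SD of each group beside them (lower bars end at 0 where the SD exceeds the mean). Control 5 and Induced 2 lie toward the other group for COL6A3, COL4A1, ITGA6 and ITGB4, and ITGB5 lies between 123 and 342 CPM in the parental line against 623 to 1024 CPM in the transgene line.

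Because these chains work only as trimers or dimers, the ratio of partner chains was taken within each library, where the scaling of the library cancels. Of 15 partner pairs, tested after the values of the chains were known, 9 differed between Induced and Control at an unadjusted p below 0.05 (exact permutation test over all splits of 10 libraries, 5 against 5, two-sided), and 8 after Benjamini-Hochberg adjustment over the 15 ratios. No share was computed for other pairs of genes, so these counts describe the pairs and are not particular to partner chains. The COL4A1 to COL4A2 ratio was 0.0929, 0.142, 0.118, 0.149 and 0.372 in Control 1 to 5 and 0.493, 0.218, 0.525, 0.420 and 0.456 in Induced 1 to 5. The mean difference was 1.39 on the log2 scale (exact permutation test, two-sided, p = 0.0159, adjusted over the ratios 0.0298). Control 5 lay inside the Induced range, and the other Control libraries lay below it.

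The widest shift was in type VI collagen, where COL6A3 went from 0.731, 0.398, 0.663, 1.34 and 5.85 tags per COL6A1 tag in Control to 9.44, 2.14, 10.0, 11.8 and 6.60 in Induced. The mean difference was 2.67 on the log2 scale (exact permutation test, two-sided, p = 0.0159, adjusted over the ratios 0.0298). In type V collagen, COL5A1 per COL5A2 fell from between 11.4 and 43.6 to between 4.54 and 19.6, a difference of −1.55 on the log2 scale (exact permutation test, two-sided, p = 0.0159, adjusted over the ratios 0.0298). COL6A2 per COL6A1 differed by −0.33, within the spread (p = 0.183 by the same exact test).

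For integrins, ITGA6 per ITGB4 stood at 0.130, 0.130, 0.174, 0.153 and 0.702 in Control 1 to 5 and 1.75, 0.277, 1.40, 1.74 and 1.17 in Induced 1 to 5, a difference of 2.42 on the log2 scale (exact permutation test, two-sided, p = 0.0159, adjusted over the ratios 0.0298). Pairs without overlap between the groups were ITGA3 per ITGB1, from 1.04, 1.26, 2.26, 0.876 and 0.629 to 0.369, 0.446, 0.322, 0.297 and 0.472, ITGA5 per ITGB1, and ITGB8 per ITGAV. They differed by −1.56, −1.58 and 1.33 on the log2 scale, each with p = 0.00794, the smallest that 5 against 5 libraries allow in the two-sided exact test. The ratios ITGA6 to ITGB1, ITGAV to ITGB1 and ITGAV to ITGB5 did not differ beyond the spread, with p = 0.135, 0.389 and 0.175 by the exact permutation test.

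For laminins, LAMA1 per LAMC1 differed by −0.81 on the log2 scale (exact permutation test, two-sided, p = 0.0159, adjusted over the ratios 0.0298). LAMB1 and LAMA5 per LAMC1 differed by 0.38 and 0.29, within the spread, at p = 0.325 and 0.508 (exact permutation test). In the parental line, 0 of the 15 ratios reached an unadjusted p below 0.05, which 3 against 3 libraries cannot do, since the smallest exact p there is 0.1.

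**Figure D4:**
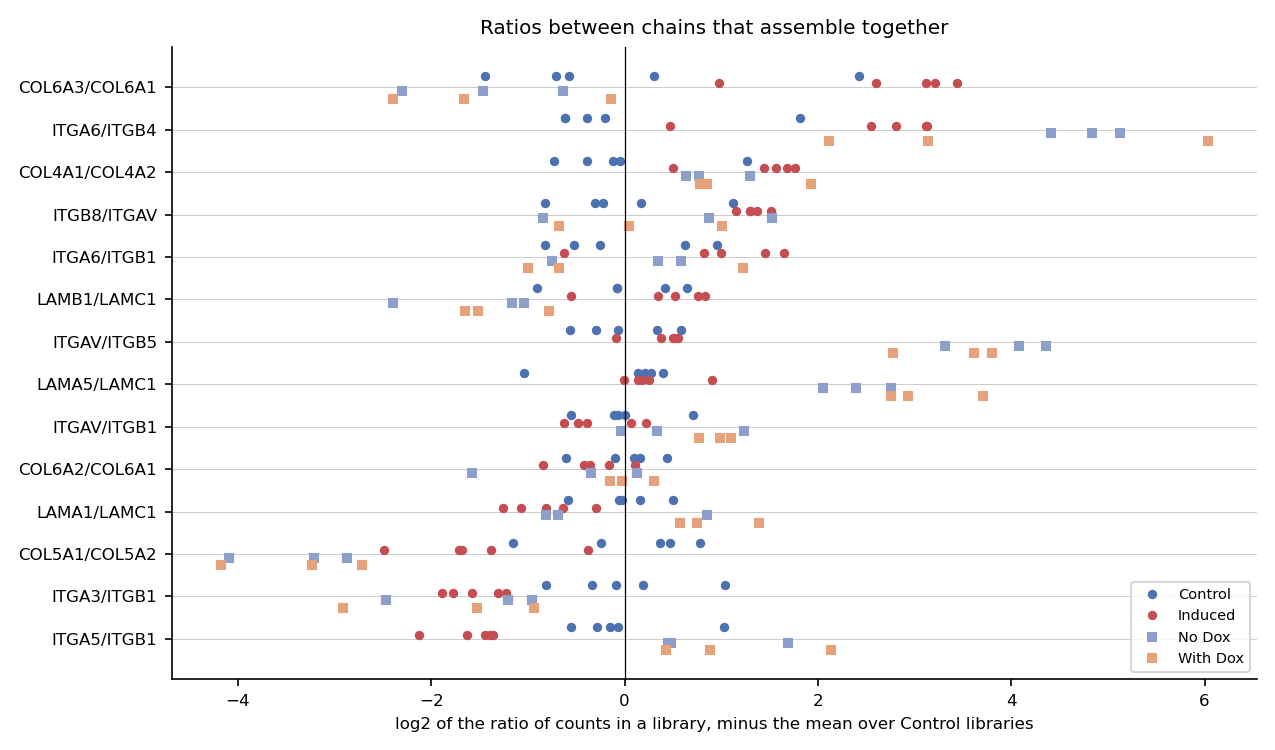
log2 of the ratio of counts between partner chains in each library, centred on the Control mean of that ratio, for partner pairs; circles are transgene libraries and squares parental libraries. ITGA3/ITGB1, ITGA5/ITGB1 and ITGB8/ITGAV show no overlap between Control and Induced, and for ITGAV/ITGB5 all 6 parental libraries lie above all transgene libraries.

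Transcript GC content moved with these changes. Over the 40 tested members, the Spearman correlation of log2 fold change with GC content was −0.52, and it was −0.43 over all genes tested; members share libraries and are not independent, so no p is given. Called risers had a median GC content of 53.1% and called falls of 61.7%. In several split pairs the chain that rose had the lower GC content: 55.2% for COL4A1 and 61.8% for COL4A2, 53.1% for COL6A3 and 63.5% for COL6A1, 42.5% for ITGA6 and 63.6% for ITGB4. Offsets for GC content were also put in the fit, and the edgeR log2 fold changes of partners were subtracted. The differences were 1.18 for COL4A1 over COL4A2, 1.92 for COL6A3 over COL6A1 and 1.60 for ITGA6 over ITGB4. The log2 ratios of counts given above, which use no offsets, differed by 1.39, 2.67 and 2.42. These are different measures, so the gap between them is not the effect of the offsets alone. ITGA3 (60.9%) and ITGA5 (58.0%) have a higher GC content than ITGB1 (39.5%). Their differences from ITGB1 were −0.76 and −0.87 with offsets, against −1.56 and −1.58 for the ratios of counts. ITGB8 and ITGAV have nearly equal GC content (38.7% and 38.3%). Their difference was 1.20 with offsets, against 1.33 for the ratio of counts.

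With these offsets, 13 members were called, 8 higher and 5 lower, which is 20% and 12.5% of the 40, against 11.9% and 14.8% of all genes tested. By family, higher and lower calls were 6 and 0 for collagens, 1 and 2 for laminins, and 1 and 3 for integrins. The calls of COL26A1, COL5A2, COL6A1, COL6A2, ITGA6, ITGA7 and LAMA1 were lost and LAMA5 was added. The falls of ITGA3, ITGA5, ITGB4 and LAMC3 kept their calls, at −0.73 (adjusted p = 0.0275), −0.85 (adjusted p = 0.0275), −0.64 (adjusted p = 0.0310) and −1.11 (adjusted p = 0.0275) on the log2 scale (edgeR, Benjamini-Hochberg).

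**Figure D5:**
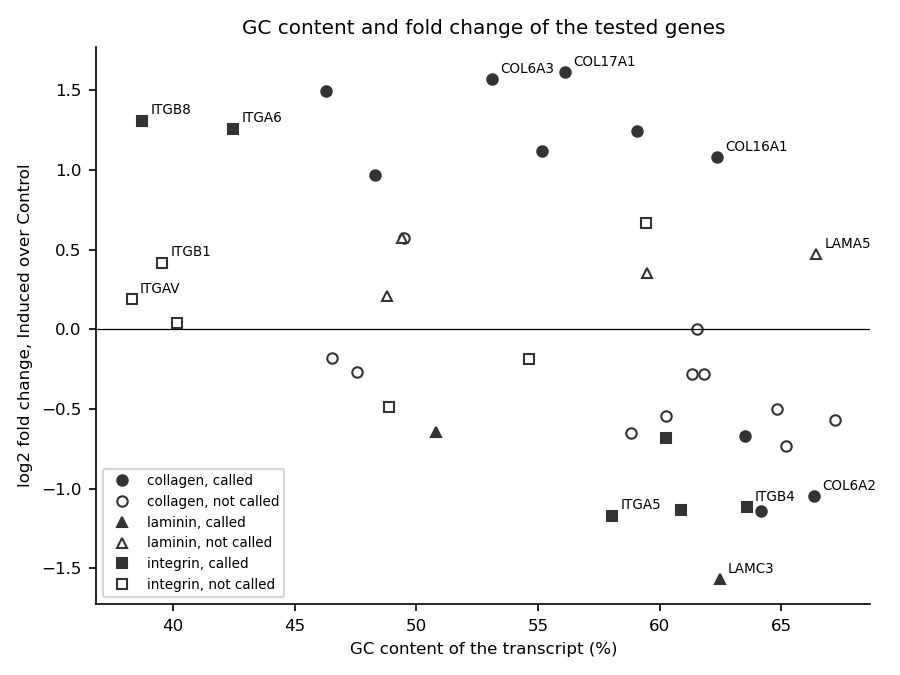
log2 fold change of Induced over Control against the GC content of the transcript in percent, for tested members (filled, called; shape, family). Members called lower are at GC contents from 50.8% to 66.4% and members called higher from 38.7% to 62.3%.

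The parental comparison asked whether doxycycline alone moves these genes. Of the 77 members, 27 passed the base mean filter and 0 were called by edgeR at an adjusted p below 0.05, against 0% of all 9124 genes tested; at an unadjusted p below 0.05 there was 1 member, against 2.93% of all genes. DESeq2 called 0 members as well. That member was ITGB5, which was at 123, 181 and 188 CPM in No Dox 1 to 3 and 342, 281 and 315 CPM in With Dox 1 to 3. Every With Dox library lay above every No Dox library, and the log2 fold change was 0.93 (SE 0.37, unadjusted p = 0.0301 by edgeR's quasi-likelihood test, adjusted p = 0.997 with Benjamini-Hochberg adjustment).

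The next lowest p-values were those of COL11A1 and COL18A1. COL11A1 stood at 56.6, 11.0 and 12.9 CPM in No Dox and 5.71, 15.95 and 13.0 CPM in With Dox, a log2 fold change of −1.21 (SE 0.70, adjusted p = 0.997, edgeR with Benjamini-Hochberg adjustment) that became 0.03 without No Dox 1. COL18A1 stood at 24.6, 4.88 and 13.5 CPM and 9.29, 5.98 and 4.89 CPM, at −1.05 (SE 0.62, adjusted p = 0.997, same test). Of the 27 members tested here, ITGB5 alone had parental groups without overlap. Over all 9124 genes tested, 444 were higher and 425 lower without overlap. The groups thus overlapped for every tested member that was called in the transgene line, and 3 are given as examples. ITGA3 was at 164, 31.7 and 71.9 CPM in No Dox and 83.6, 32.3 and 80.7 CPM in With Dox, COL4A1 at 24.6, 6.10 and 33.2 and 22.5, 30.3 and 7.33 CPM, and ITGA6 at 20.9, 24.4 and 27.3 and 13.2, 62.6 and 10.6 CPM. The biological coefficient of variation was 0.444 in this comparison and 0.320 in the transgene line, and with the lower depth the precision was lower, so a missed threshold here does not show that levels were equal.

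Whether the response differed between the lines was tested as an interaction over all 16 libraries. Of 36 members tested, 2 were called, both lower, which is 5.56%, against 2.98% of all 12265 genes in either direction. ITGB4 fell in Induced and was at 4.92, 4.27 and 3.89 CPM in No Dox and 7.50, 4.79 and 12.2 CPM in With Dox, a difference between responses of −2.21 on the log2 scale (SE 0.53, adjusted p = 0.0433, edgeR with Benjamini-Hochberg adjustment). At the parental depth of 1473286 to 3214808 gene counts per library, these ITGB4 values rest on few tags. ITGB5 differed by −1.34 (SE 0.33, adjusted p = 0.0444, same test), with −0.18 for Induced over Control beside 0.93 for With Dox over No Dox. Both calls sat close to the threshold: with 1 library left out, the adjusted p from edgeR lay between 0.00971 and 0.130 for ITGB4 and between 0.0142 and 0.151 for ITGB5, and both calls were kept only without Control 5, Induced 2 or With Dox 2, while ITGB5 alone was kept without No Dox 3. With filterByExpr, no filter or total counts, 0 members were called, beside 3, 150 and 506 of all genes. For the other called members of the transgene line, a difference from the parental response was not shown.

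Genes that process, cross-link or bind these chains were counted in lists chosen for their textbook role, and each count is to be read against the 20.0% of all genes tested that were higher and the 19.8% that were lower, or the 11.9% and 14.8% with GC offsets. Of 28 genes for collagen folding, modification and processing, 23 were tested, 3 were higher (13.0%) and 9 lower (39.1%). With GC offsets, 0 were higher and 7 lower. P3H3, a collagen prolyl 3-hydroxylase family member, fell from 192 ± 91.4 to 74.9 ± 18.4 CPM (SD, n = 5 each), a log2 fold change of −1.36 ± 0.32 (SE, adjusted p = 0.0175), and BMP1, the procollagen C-proteinase, fell at −1.33 ± 0.27 (SE, adjusted p = 0.0175), both by edgeR with Benjamini-Hochberg adjustment. Both calls were kept with GC offsets and in all 10 leave-one-out fits. Calls kept in all 10 fits, here and in the lists below, passed narrowly. Their highest adjusted p lay between 0.0495 and 0.0498 (edgeR, Benjamini-Hochberg). PCOLCE2, an enhancer of that proteinase, and PLOD2, the lysyl hydroxylase of telopeptides, rose, at 1.36 ± 0.50 (SE, adjusted p = 0.0481) and 1.23 ± 0.41 (SE, adjusted p = 0.0356) by the same test. Their calls were lost with GC offsets, and in 8 and 7 of the 10 leave-one-out fits, and the log2 fold change of PCOLCE2 was 2.11 without Control 5.

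Of 6 cross-linking enzymes, all tested, 3 were higher (50%) and 1 lower (16.7%), and 3 and 0 with GC offsets. LOXL3 at 1.58 ± 0.58 (SE, adjusted p = 0.0475) and LOX at 0.77 ± 0.25 (SE, adjusted p = 0.0325) were among the rises, and LOXL4 fell, at −0.67 ± 0.18 (SE, adjusted p = 0.0194) (edgeR, Benjamini-Hochberg). The calls of LOXL3 and LOX were each lost in 8 and that of LOXL4 in 3 of the 10 leave-one-out fits, and LOXL3 was at 0.95 on the log2 scale without Induced 5. With GC offsets the calls of LOX and LOXL4 were lost.

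Of 38 other matrix glycoproteins and proteoglycans, 19 were tested, 5 were higher (26.3%) and 2 lower (10.5%), and 4 and 3 with GC offsets. MATN3, a cartilage matrilin and also 1 of the chondrocyte markers above, and LTBP2, an elastic-fibre protein, rose at 1.69 ± 0.50 (SE, adjusted p = 0.0243) and 1.41 ± 0.50 (SE, adjusted p = 0.0416), whereas FBLN1, a basement membrane fibulin, and LTBP3, which holds latent TGF-β, fell at −1.41 ± 0.30 (SE, adjusted p = 0.0175) and −1.29 ± 0.29 (SE, adjusted p = 0.0175) (edgeR, Benjamini-Hochberg). These 4 calls were kept with GC offsets. Those of FBLN1 and LTBP3 were also kept in all 10 leave-one-out fits, while that of MATN3 was lost in 7 and that of LTBP2 in 8, and LTBP2 was at 2.18 on the log2 scale without Control 5.

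Among 12 basement membrane partners, 8 were tested, 0 were higher and 4 lower (50%), including BCAM, a laminin receptor, at −1.40 ± 0.36 (SE, adjusted p = 0.0184) and AGRN, a heparan sulfate proteoglycan, at −1.12 ± 0.30 (SE, adjusted p = 0.0200) by edgeR with Benjamini-Hochberg adjustment. With GC offsets, 1 gene of this list was called lower, and it was neither BCAM nor AGRN. The call of BCAM was kept in all 10 leave-one-out fits and that of AGRN lost in 2.

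Downstream of the receptors, 31 of 32 integrin adaptors and focal adhesion genes were tested, with 4 higher (12.9%) and 7 lower (22.6%), and 4 and 3 with GC offsets. TNS3, a tensin, and FERMT2, a kindlin that activates integrins, rose at 1.28 ± 0.30 (SE, adjusted p = 0.0175) and 1.17 ± 0.37 (SE, adjusted p = 0.0293), and TGFB1I1, a paxillin relative, and FLNA, the actin cross-linker that binds β subunit tails, fell at −1.32 ± 0.35 (SE, adjusted p = 0.0187) and −1.13 ± 0.30 (SE, adjusted p = 0.0187) (edgeR, Benjamini-Hochberg). The call of TNS3 was kept in all 10 leave-one-out fits, whereas that of FERMT2 was lost in 6, that of TGFB1I1 in 2 and that of FLNA in 1. With GC offsets the calls of FERMT2 and FLNA were lost.

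Of 32 matrix proteases and inhibitors, 20 were tested, 3 were higher (15%) and 5 lower (25%), and 2 and 3 with GC offsets. ADAM9 gave the largest called rise of that list, from 8.15 ± 3.27 to 45.2 ± 23.0 CPM (SD, n = 5 each) at 2.47 ± 0.45 (SE, adjusted p = 0.0175), beside RECK, a membrane-anchored protease inhibitor, at 1.00 ± 0.29 (SE, adjusted p = 0.0243), and ADAM15 and MMP9, a gelatinase, fell at −1.18 ± 0.33 (SE, adjusted p = 0.0206) and −0.93 ± 0.26 (SE, adjusted p = 0.0205) (edgeR, Benjamini-Hochberg). The call of ADAM9 was kept with GC offsets and in all 10 leave-one-out fits. Those of RECK, ADAM15 and MMP9 were lost with GC offsets, and in 5, 3 and 4 of the 10 leave-one-out fits.

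Of 16 other matrix receptors and their membrane partners, 14 were tested, 3 were higher (21.4%) and 5 lower (35.7%), and 2 and 4 with GC offsets. CD9, a tetraspanin that associates with integrins, was at 6.20, 4.44, 3.06, 8.08 and 217 CPM in Control 1 to 5 and 744, 13.7, 831, 653 and 966 CPM in Induced 1 to 5, at 3.74 ± 1.35 (SE, adjusted p = 0.0453), so its mean in Control rested on Control 5. Its log2 fold change was 6.86 without Control 5, and its call was lost with GC offsets and in 8 of the 10 leave-one-out fits. SDC2, a syndecan, rose at 1.13 ± 0.33 (SE, adjusted p = 0.0235), a call lost in 6 of those fits. The tetraspanins CD151, which binds ITGA3 and ITGA6, and CD81 fell at −1.17 ± 0.26 (SE, adjusted p = 0.0175) and −1.55 ± 0.32 (SE, adjusted p = 0.0175) (edgeR, Benjamini-Hochberg), and their calls were kept with GC offsets and in all 10 leave-one-out fits. Of 5 leukocyte integrin chains that the naming rule leaves out, 1 was tested and 0 were called. In the parental line, 0 genes of these lists were called by edgeR.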

How the data were processed

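Cytoplasmic RNA of 16 U2OS-TR libraries was read as 3′ tags with QuantSeq REV. The authors reduced the reads against GRCh38 with Lexogen's QuantSeq REV pipeline (version 2.2.3, Blue Bee) and deposited raw counts per Ensembl gene for each library. Aligner, annotation release, strand use and duplicate handling are not given in the sources used here. Rows naming no gene, mainly tags aligned to several places or to no feature, made up 39.3% to 59.1% of the counts in the transgene line and 65.7% to 74.7% in the parental line and were left out.

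From the counts, those genes whose base mean exceeded 20 entered edgeR 4.0.16 (R 4.3.3; quasi-likelihood, TMM factors, Benjamini-Hochberg over all genes tested, calls at an adjusted p below 0.05), separately in each line and, for the interaction, over all 16 libraries. The standard error is the size of the log2 fold change divided by the square root of F. Symbols, coordinates and transcript GC content came from GENCODE 44. Ratios of chains used counts plus 0.5 and exact permutation tests. The fit was tested on simulated data. Alternatives were DESeq2 1.42.0, its size factors, total counts, filterByExpr, no filter, a replicate block, GC offsets (lowess span 0.5), 1 surrogate variable (sva 3.50.0), single libraries left out and, added after seeing the data, Control 5 and Induced 2, or No Dox 2 and With Dox 3, left out together.

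Named are the 6 most abundant members of each family in Control, all called members, the 3 lowest p-values of the parental comparison and partner chains; members and lists were chosen with earlier results of these data known. Counts cover all members and markers, although 1 of each is not reported here. COL3A1, COL1A2 and LAMA3 were named as partners or after their values were seen. Libraries differed by more than sampling noise (smallest chi-square per degree of freedom between replicates 4.55). The study describes the transgene libraries as biological replicates and the parental cells as grown in triplicate.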

Additional observations from a re-analysis of the deposited data

Results flagged for a closer look

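Single libraries lay far from the other 4 of their group for 8 values among 64 groups tested with Dixon's ratio (critical value 0.71 for 5 libraries), a test that flags about 5% of groups by chance. In Control 5, COL6A3 was at 61.2 CPM, ITGA6 at 27.9 CPM and ITGB8 at 7.07 CPM, all above the other Control libraries, and COL6A1 at 10.5 CPM, below them. In Induced 2, COL12A1 was at 2.96 CPM and COL16A1 at 3.20 CPM, below the other Induced libraries. In Induced 5, COL4A2 was at 56.4 CPM and LAMB1 at 14.2 CPM, again the lowest of the group. The responses of the transgene and parental lines differed by −2.21 on the log2 scale for ITGB4 and by −1.34 for ITGB5 in the interaction test.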

How the results depend on the processing

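In the transgene line, 19 members were called, between 13 and 20 under the other settings with all 10 libraries, except 0 with 1 surrogate variable, and 27 without Control 5 and Induced 2. With single libraries left out the count lay between 7 and 27. Calls over all genes moved as well, from 5183 to between 3476 and 5956 under those other settings. They were 8329 without Control 5 and Induced 2, and 1869 to 7604 with single libraries left out. The replicate numbers did not pair the libraries: deviations of same-numbered libraries correlated at −0.25, 0.63, −0.37, −0.11 and 0.24 in the transgene line and at 0.00, 0.24 and −0.42 in the parental line, and 3 and 2 libraries correlated best with their own number. With the replicate block 18 members were called, of which 17 were shared, 14 with the block and GC offsets, and 1 in the interaction. In the parental line 0 members were called under every setting run. For the interaction, the 2 calls became 8 without Control 5 and Induced 2, 3 with DESeq2, 1 with DESeq2's size factors, 0 with filterByExpr, 0 with no filter, 0 with total counts, and 0 to 6 with single libraries left out. Over all genes, the 365 calls became 3040, 1489, 236, 3, 150, 506 and 0 to 2290 in the same order.

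Values that turned sign were of members not called. COL1A1, near 0 (main value 0.00029), was at −0.00045 with the surrogate variable, −0.070 without Control 5 and Induced 2, −0.037 with DESeq2 and −0.037 with its size factors, −0.00400 with filterByExpr, −0.010 with no filter, −0.026 with the replicate block and from −0.10 to 0.13 with single libraries left out. With GC offsets, alone or with the replicate block, COL4A2 was at 0.16 and 0.16, COL27A1 at 0.12 and 0.11, ITGB5 at 0.010 and 0.013, ITGAV at −0.28 and −0.27, and COL18A1 at 0.028 and 0.045. ITGB5 was at 0.039 with total counts, LAMB3 at −0.15 and COL11A1 at 0.069 with the surrogate variable. In the parental line COL11A1 lay from −1.49 to 0.029 with single libraries left out. The cause was not tested. Over all tested values and settings, 538 kept their side of the threshold, 146 lost a call, 18 gained one and 26 turned sign. The parental libraries held 1473286 to 3214808 gene counts, which limits the precision of their values.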
